A study of Mus musculus with 9 samples.

Results

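The proteins of the cytosolic ribosome were followed at the level of their mRNAs in 3 populations of dendritic cell (DC) progenitors of the mouse. The genes were taken by symbol: those named Rpl or Rps with a number, together with Rplp0, Rplp1, Rplp2 and Rpsa, without the S6 kinases and without pseudogenes. Of 61 symbols that met this rule 1, the pseudogene Rps4l, was left out, and 60 genes remained of the 19938 genes measured by a probe set with a single gene symbol. They comprise 38 genes of the large and 22 of the small ribosomal subunit, and 6 of them are paralogs of a core gene. Where a gene had several such probe sets, the one with the highest mean signal over the 9 arrays stood for it, so that signal levels are given as a description and were not tested. The RefSeq gene table lists 84 protein-coding symbols of this kind. Those without a single-symbol probe set in the table used here, Rpl3, Rpl11, Rpl39, Rps27 and Rpl22l1 among them, were not analysed one by one.

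All cells came from bone marrow of the pelvis, tibia and femur of mice that carry 1 copy of a Zbtb46-GFP reporter, and no further treatment, age or sort gate is given in the sources used here. Zbtb46 is a transcription factor of classical DCs, and its reporter splits the common DC progenitors into Zbtb46- CDPs and Zbtb46+ CDPs. Pre-CD8 DCs are the later precursors of the CD8+ (cDC1) branch. Each population was sorted by flow cytometry and hybridised, after a pico-scale whole-transcript labelling of total RNA, to 3 Affymetrix arrays. The labels do not say whether the arrays of a population came from separate mice, so that p-values measure only the spread between these arrays.

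A ribosome holds a single copy of nearly each of its proteins, and cells make them in step with growth. Their mRNAs are among the most abundant of any cell and begin with a run of pyrimidines, the 5′ terminal oligopyrimidine (TOP) motif, through which the mTOR kinase and the RNA-binding protein LARP1 control their translation and stability. Growth signals, and Myc in particular, also raise the transcription of ribosomal protein genes and of the factors that assemble ribosomes. Progenitors that divide fast need many new ribosomes.

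The start sites shown here let a reader see that motif. RefSeq start regions of build GRCm38.p6 were at hand for 49 of the 60 genes, 58 starts in all, and each line gives 15 bases before and 15 bases from the annotated start, with a run of at least 5 C or T bases near the start in capitals. The first 3 genes were lower in Zbtb46+ CDPs under both scalings used here, Rps6 passed neither test, and Rpl7l1 and Rps3 were lower under both without such a run. Rps18 and Rps10 were chosen after their values were seen.
Rpl14 (chr9:120571502-120571531, plus strand): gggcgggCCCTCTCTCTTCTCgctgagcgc
Rps18 (chr17:33955651-33955680, minus strand): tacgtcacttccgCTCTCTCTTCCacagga
Rps10 (chr17:27635230-27635259, minus strand): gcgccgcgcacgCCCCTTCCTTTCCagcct
Rps6 (chr4:86857353-86857382, minus strand): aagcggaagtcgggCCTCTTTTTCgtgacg
Rpl7l1 (chr17:46782642-46782671, minus strand): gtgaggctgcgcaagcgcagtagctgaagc
Rps3 (chr7:99483695-99483724, minus strand): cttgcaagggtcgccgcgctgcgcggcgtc
A run of at least 8 C or T bases on the gene's strand that touched the 10 bases on either side of the start was found at 20 of the 58 starts (34.5%), against 13.7% of all 32851 starts in the table. For a run of at least 5 the shares were 62.1% and 44.9%. Among the 25 genes with a start region that were lower in Zbtb46+ CDPs, 9 had a run of 8, against 10 of the 24 that did not pass the test. An annotated start can lie some bases from the one a cell uses, and a start without a run says only that these letters are not in this window.

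The arrays differed in ways that bear on these genes. The markers of the cDC1 lineage, 10 of 10 measured, summed on the linear scale to 11573 to 12681 in Zbtb46- CDPs, 19565 to 22173 in Zbtb46+ CDPs and 33216 to 34240 in Pre-CD8 DCs. Replicate 1 of both CDP populations stood apart from the other 7 arrays in Xist, the RNA of the inactive X chromosome, with log2 signals of 5.30 in the Zbtb46+ and 5.59 in the Zbtb46- array, against 11.85 to 12.29 elsewhere. Neutrophil markers, 10 of 10 measured, summed to 32004 in Zbtb46+ replicate 1 and to 7718 and 7751 in the other Zbtb46+ arrays, to 27162 to 31789 in Zbtb46- CDPs and to 980 to 1988 in Pre-CD8 DCs. Of these 10 genes, 10 had a mean above the table's median in Zbtb46+ CDPs, 9 in Zbtb46- CDPs and 5 in Pre-CD8 DCs. Ngp, a neutrophil granule gene, was highest of all arrays in Zbtb46+ replicate 1, at 12.36, but did not follow the marker sum on the other arrays. It stood at 5.39 and 5.73 in the other Zbtb46+ arrays. In Zbtb46- CDPs it had 10.48, 5.70 and 6.84, and in Pre-CD8 DCs 8.30, 5.78 and 8.54. That array was also the lowest in ribosomal protein signal. The part of these differences in the results was not tested beyond the repeats without the arrays low in Xist that stand beside them.

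Ribosomal protein genes were among the brightest genes on every array. Of the 60, 51 lay in the brightest 10% of all genes, and the median member stood above 99.48% of all genes on the array where it ranked lowest. Signals of different probe sets depend on their probes, so that levels are not compared between genes. Rpl39l, Rpl3l and Rpl10l, paralogs known in the mouse mainly from testis (Rpl39l and Rpl10l) and striated muscle (Rpl3l), had mean log2 signals of 4.91, 5.69 and 5.75, below the table's median of 6.82, and were not shown to be above background. Rpl12, a protein at the base of the ribosomal stalk, lay near that median, at 6.97. Ribosomal protein genes have many near-identical pseudogene copies, so that a probe set can also read a copy's RNA.

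The median log2 signal of the 60 genes was 12.98, 12.98 and 13.10 in Zbtb46- CDPs, 12.37, 12.80 and 12.87 in Zbtb46+ CDPs, and 12.94, 12.95 and 12.90 in Pre-CD8 DCs. On this deposited scale all 3 Zbtb46+ arrays lay below all arrays of both other populations, and replicate 1 lay farthest down. After quantile normalization Zbtb46+ replicate 3, at 12.908, lay above Pre-CD8 replicates 1 and 3, at 12.905 and 12.875. The group means after quantile normalization were 12.96 ± 0.03 in Zbtb46- CDPs, 12.80 ± 0.15 in Zbtb46+ CDPs and 12.90 ± 0.02 in Pre-CD8 DCs. On the deposited scale they were 13.02 ± 0.07, 12.68 ± 0.27 and 12.93 ± 0.03 (SD, n = 3 each). As a share of the summed signal of all genes the 60 genes made up 5.72% ± 0.26 in Zbtb46- CDPs, 5.02% ± 0.63 in Zbtb46+ CDPs and 5.32% ± 0.06 in Pre-CD8 DCs. Only Zbtb46+ replicate 1, at 4.285%, lay below the Pre-CD8 arrays, at 5.277% to 5.385%. Zbtb46+ replicates 2 and 3, at 5.368% and 5.392%, overlapped them. Gene by gene, Zbtb46+ replicate 1 was the lowest of the 9 arrays for 44 of the 60 genes and Zbtb46+ replicate 2 for 11, while Zbtb46- replicate 3 was the highest for 35.

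**Figure D1:**
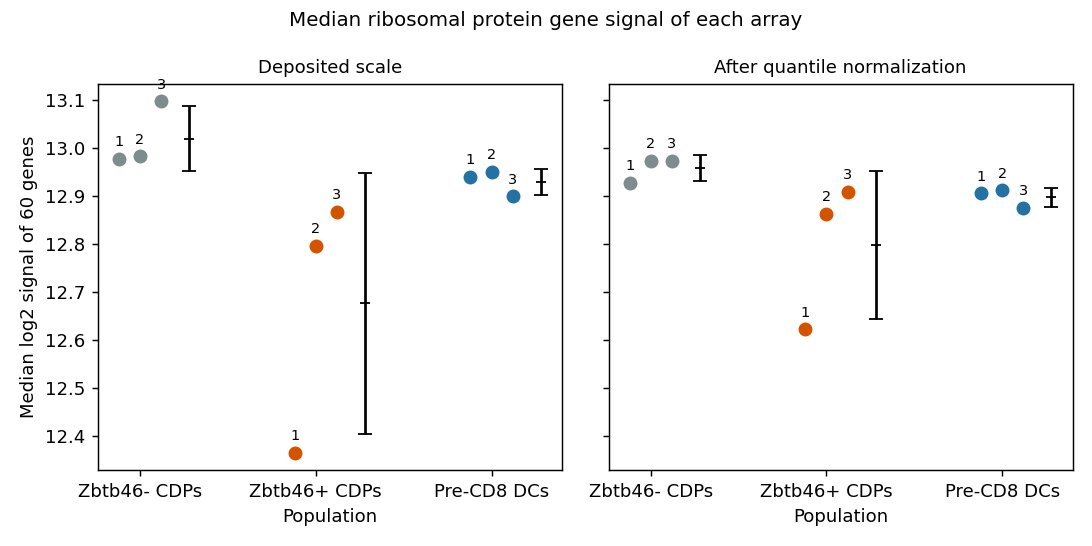
Median log2 signal of the 60 ribosomal protein genes on each array (numbered points, replicate number above), with the mean and SD of each population beside them, on the deposited scale (left) and after quantile normalization (right). The 3 Zbtb46+ arrays sit lowest on the left, between 12.37 and 12.87, and quantile normalization brings replicate 1 up to 12.62. On the right Zbtb46+ replicate 3 lies above Pre-CD8 replicates 1 and 3.

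The comparison of Zbtb46+ with Zbtb46- CDPs asks how the ribosomal protein genes stand when the reporter comes on. All 60 genes had a lower mean in Zbtb46+ CDPs. Of these, 29 (48.3%) passed the test as lower and 0 as higher (limma, adjusted p under 0.05 over all genes). Over all genes 10.6% were lower and 3.85% higher by the same test. At an unadjusted p under 0.05 46 of the 60 were lower and 0 higher. The share of all genes at this unadjusted threshold was not counted, so that the 46 cannot be set against the 10.6%. The median log2 difference of the 60 genes was -0.30, with a range of -1.04 to -0.04, beside a median of 0.04 for all genes. For 50 of the 60 genes the 3 Zbtb46+ arrays all lay below the 3 Zbtb46- arrays, as was so for 17.4% of all genes, and after quantile normalization the counts were 38 of the 60 and 16.2%. Without Zbtb46- replicate 3, the array with the highest ribosomal protein signal, 14 of the 60 passed as lower, beside 6.73% of all genes. The measurement is of RNA from sorted bulk cells, and fewer cells with high levels cannot be told apart from less RNA in each cell.

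Both subunits took part. Of the large subunit genes 18 of 38 were lower, with a median of -0.33, and of the small subunit genes 11 of 22, with a median of -0.29. Among the 54 core genes, without the paralogs, 28 were lower and 0 higher.

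**Figure D2:**
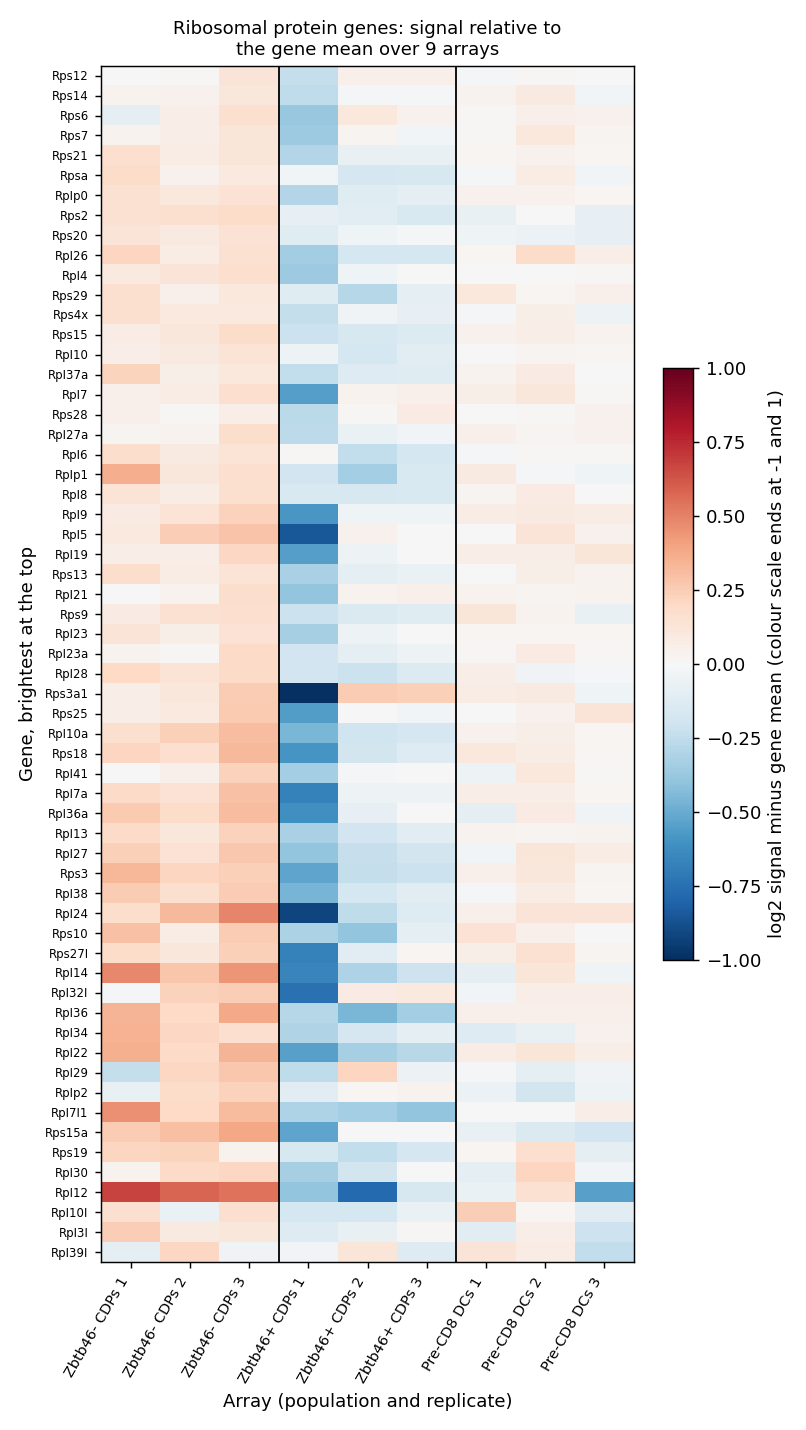
Log2 signal of each of the 60 genes on the 9 arrays, minus that gene's mean over the arrays, with genes ordered by mean signal and arrays grouped by population in order of development. Blue, for values below the gene's mean, fills the Zbtb46+ columns, most of all replicate 1, which was the lowest array for 44 genes.

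The largest falls were in large subunit genes. Rpl36 had log2 signals of 10.42, 10.25 and 10.37 in Zbtb46+ CDPs, against 11.05, 10.91 and 11.08 in Zbtb46- CDPs. Its Zbtb46+ arrays spanned less than the gap to the other population, and the signal ratio was 0.630 (log2 difference -0.67, SE 0.08, limma adjusted p = 0.000623). Rpl7l1, a paralog of Rpl7, stood at 9.03, 9.0 and 8.95 in Zbtb46+ CDPs, against 9.80, 9.55 and 9.66 in Zbtb46- CDPs. It fell by 0.67 (SE 0.08, adjusted p = 0.000702), with Zbtb46+ replicate 1 the highest of its population.

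Rpl22, a large subunit protein needed for αβ T cell development in the mouse, had 9.68, 9.90 and 9.95 in Zbtb46+ CDPs, against 10.58, 10.42 and 10.57 in Zbtb46- CDPs. It fell by 0.68 (SE 0.09, adjusted p = 0.00124). Rpl14, whose start carries the longest run of pyrimidines among the sequences shown, had 10.68, 11.04 and 11.13 in Zbtb46+ CDPs, against 11.82, 11.62 and 11.78 in Zbtb46- CDPs. It fell by 0.79 (SE 0.12, adjusted p = 0.00323), and the arrays of the populations lay apart for both genes.

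Rpl24, the gene mutated in the belly spot and tail mouse, had 10.90, 11.56 and 11.69 in Zbtb46+ CDPs, against 11.99, 12.14 and 12.31 in Zbtb46- CDPs. Replicate 1 lay well below the other Zbtb46+ arrays, and the fall of 0.76 (SE 0.18, adjusted p = 0.0231) no longer passed without Zbtb46- replicate 2 or without Zbtb46- replicate 3. The dim Rpl12 had 6.57, 6.19 and 6.80 in Zbtb46+ CDPs, against 7.64, 7.55 and 7.51 in Zbtb46- CDPs, a fall of 1.04 (SE 0.19, adjusted p = 0.00696). Its Zbtb46+ signals lay below the table's median, so that the size of the fall is uncertain. Of these 6 genes, Rpl12, Rpl14, Rpl22, Rpl36 and Rpl7l1 stayed past the test, and lower, in each alternative that was run.

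The stalk proteins, which recruit the GTPases of translation to the large subunit, did not all pass. Rplp0 had 13.29, 13.46 and 13.50 in Zbtb46+ CDPs, against 13.74, 13.69 and 13.73 in Zbtb46- CDPs, and fell by 0.30 (adjusted p = 0.022). It no longer passed after quantile normalization (adjusted p = 0.0757), or without Zbtb46- replicate 1 or 3. Rplp1 fell by 0.44 (adjusted p = 0.011; 0.068 after quantile normalization). Rplp2, at 9.61, 9.74 and 9.75 in Zbtb46+ CDPs, against 9.65, 9.90 and 9.95 in Zbtb46- CDPs, overlapped between the populations (difference -0.13, adjusted p = 0.396).

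Among small subunit genes Rps3 fell the most. Rps3, which lines the mRNA entry channel, had 11.88, 12.17 and 12.19 in Zbtb46+ CDPs, against 12.74, 12.62 and 12.65 in Zbtb46- CDPs. It fell by 0.59 (SE 0.09, adjusted p = 0.00329) and passed in each alternative that was run. Rps2, also at the entry channel, fell by 0.28 (adjusted p = 0.016), a call lost after quantile normalization (adjusted p = 0.0513) and without Zbtb46- replicate 3. Rps19, the gene most often mutated in human Diamond-Blackfan anaemia, fell by 0.35 (adjusted p = 0.0277), a call lost after quantile normalization and without Zbtb46- replicate 1 or 2, Zbtb46+ replicate 2 or 3, Pre-CD8 replicate 1 or the arrays low in Xist. Rpsa, which also goes by the name of a laminin receptor, had a difference of -0.23 (adjusted p = 0.0696), and Rps4x, the X-linked small subunit gene, of -0.24 (adjusted p = 0.066).

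The 3 brightest genes showed little difference. Rps12 had 13.66, 13.95 and 13.95 in Zbtb46+ CDPs, against 13.90, 13.91 and 14.03 in Zbtb46- CDPs. Rps6, the substrate of the S6 kinases, had 13.36, 13.84 and 13.78 in Zbtb46+ CDPs, against 13.65, 13.80 and 13.89 in Zbtb46- CDPs. In both, Zbtb46+ replicate 1 alone lay below the other population and the other arrays overlapped it. The differences were -0.09 for Rps12, -0.12 for Rps6 and -0.16 for Rps14, the gene tied to the human 5q- syndrome, with adjusted p-values of 0.523, 0.535 and 0.242.

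In Rpl5, Rps27l and Rpl7 Zbtb46+ replicate 1 lay far below the other Zbtb46+ arrays. Rpl5, which with Rpl11 and 5S rRNA binds Mdm2, had 12.18, 13.07 and 13.02 in Zbtb46+ CDPs, against 13.13, 13.27 and 13.32 in Zbtb46- CDPs. Its difference of -0.48 did not pass with all arrays (adjusted p = 0.16) and was -0.25, with adjusted p = 0.0423, without the arrays low in Xist. Rps27l, the p53-induced paralog of Rps27, had 10.72, 11.29 and 11.41 in Zbtb46+ CDPs, against 11.58, 11.51 and 11.64 in Zbtb46- CDPs (difference -0.44, adjusted p = 0.101). Rpl7, at 12.64, 13.23 and 13.24 in Zbtb46+ CDPs, against 13.25, 13.27 and 13.36 in Zbtb46- CDPs, differed by -0.25 (adjusted p = 0.284), beside the fall of its paralog Rpl7l1, and whether the paralogs differ was not tested. Rpl23, another Mdm2-binding protein, and Rpl10, which joins the large subunit late, had differences of -0.24 and -0.21 (adjusted p = 0.116 and 0.0562). The other probe set of Rpl23, dimmer at a mean log2 signal of 11.67, differed by -0.68. The probe sets of Rpl10 lay between -0.23 and -0.20.

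**Figure D3:**
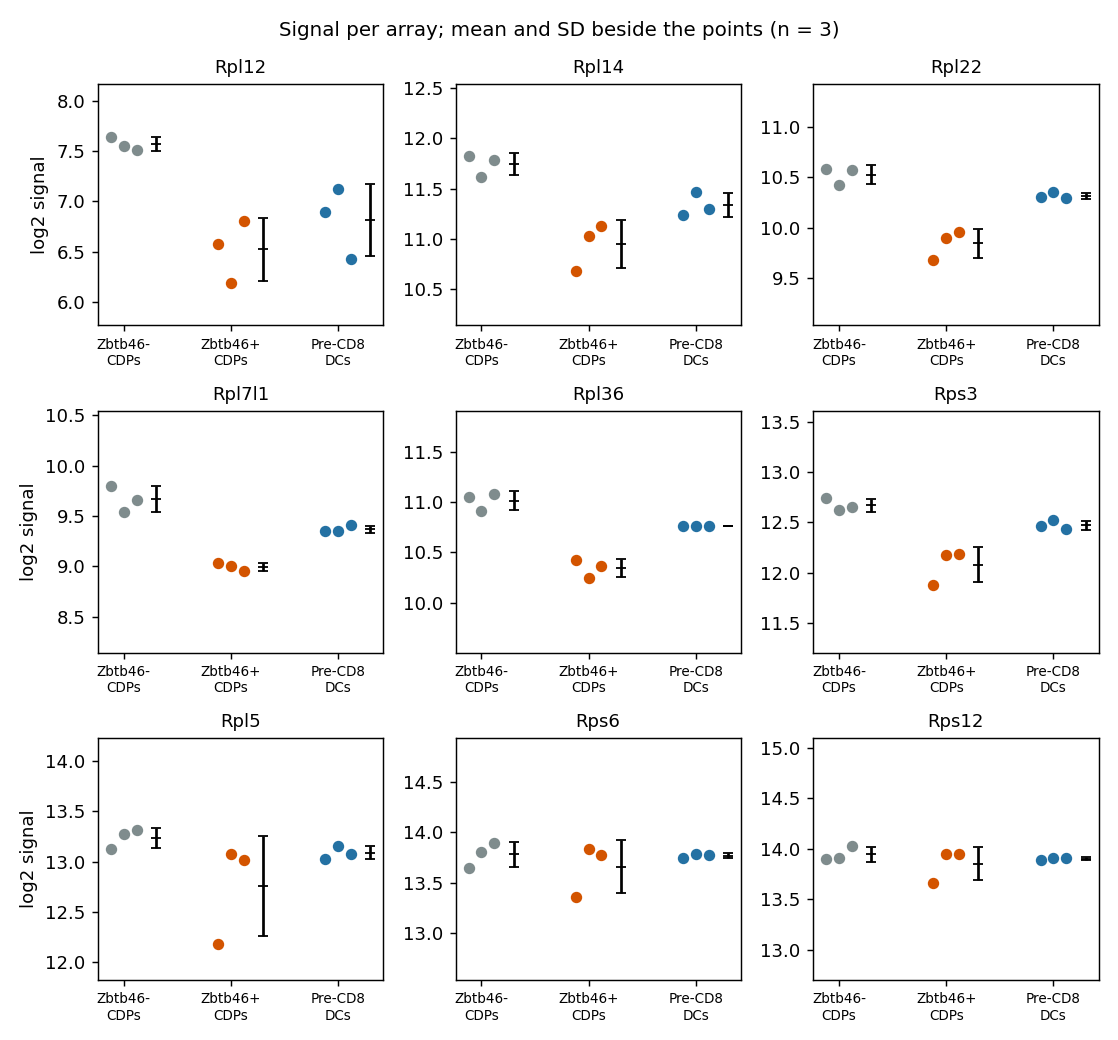
Log2 signal of 9 ribosomal protein genes on each array (points, replicates 1 to 3 from left to right), with the mean and SD of the 3 arrays beside them, on axes of equal span. The arrays of Rpl22, Rpl7l1, Rpl36 and Rps3 form 3 separate levels, lowest in Zbtb46+ CDPs, whereas in Rpl5, Rps6 and Rps12 Zbtb46+ replicate 1 lies apart from the other Zbtb46+ arrays.

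The 25 members whose probe set had a mean log2 signal of 13 and over had a median difference of -0.27, and 10 of them were lower. The 17 members with a mean log2 signal of 12 to 13 had a median difference of -0.35, and 9 of them were lower. The 9 members at 10 to 12 had a median of -0.48, with 6 lower, and the 9 under 10 had -0.32, with 4 lower. Over all genes 10.6% were lower and 3.85% higher. The 126 other genes with a mean log2 signal of at least 12, a set added after seeing the data, had a median difference of 0.0035, with 26 higher and 13 lower.

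Scaling of the arrays moved the counts. The upper end of the signal scale was lower in Zbtb46+ replicate 1, whose 97% quantile stood at 11.49, against 11.61 and 11.63 in the other Zbtb46+ arrays and 11.66 to 11.76 in Zbtb46- CDPs. After quantile normalization, which gives every array the same distribution, 57 of the 60 genes were still lower in mean, the median difference was -0.19 and 13 genes passed as lower and 0 as higher, beside 8.11% lower and 5.61% higher among all genes. Those 13 were all among the 29: Rpl12, Rpl14, Rpl22, Rpl24, Rpl27, Rpl34, Rpl36, Rpl7l1, Rps3 and, named after their values were seen, Rpl10a, Rpl38, Rps10 and Rps18. Of the 25 members at a mean log2 signal of 13 and over, 0 then passed. Cyclic loess gave 11 lower with a median of -0.14, beside 7.84% of all genes. A common median for every array gave 34 with a median of -0.34, beside 11.7% of all genes. The median rank of the members, which no scaling that keeps the order of genes can change, was the 99.76 ± 0.01 percentile in Zbtb46- CDPs, 99.62 ± 0.12 in Zbtb46+ CDPs and 99.68 ± 0.01 in Pre-CD8 DCs (SD, n = 3 each). Zbtb46+ replicate 1 stood at 99.483. Zbtb46+ replicates 2 and 3, at 99.682 and 99.707, overlapped the Pre-CD8 arrays, at 99.671 to 99.697.

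Without the 2 arrays low in Xist, which left 2 arrays in each CDP population, 30 of the 60 genes were lower and 0 higher, with a median of -0.24, beside 13.8% lower and 8.71% higher among all genes. Of the 29, 24 remained. With quantile normalization as well, 14 were lower, each of them among the 29, beside 10.7% of all genes, and the median was -0.16.

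Probe sets left out by the rule gave the same direction. Each gene's other single-symbol probe sets, 155 in all, were lower in mean in Zbtb46+ CDPs in 154 cases and past the test in 63, in a fit of all 28853 probe sets in which 2540 were lower. Of the 38 genes with several probe sets, 37 had every one lower in mean, and Rps12, with 14 probe sets between -0.31 and 0.01, was the exception. The 237 probe sets that pair a ribosomal protein symbol with other symbols, often its pseudogenes, were lower in mean in all 237 cases and past the test in 92. Of all 28853 probe sets, 11720 were lower in mean. After quantile normalization 145 of the 155 and 216 of the 237 were lower in mean, with 39 and 68 past the test. Of all probe sets 14490 were then lower in mean and 1928 past the test as lower. The 155 and the 237 probe sets read overlapping or closely alike sequence on the same arrays and are not replicates.

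**Figure D4:**
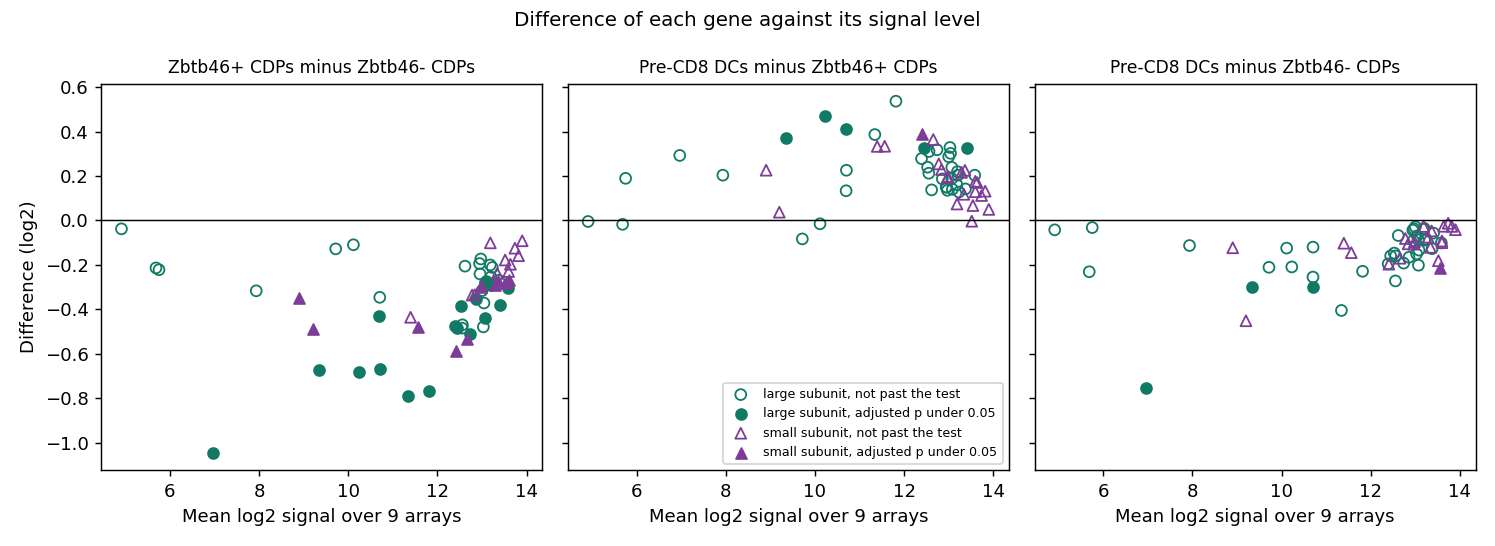
Log2 difference of each of the 60 genes in the 3 comparisons against its mean log2 signal over the 9 arrays, with circles for the large and triangles for the small subunit and filled symbols for adjusted p under 0.05. All 60 points lie below 0 in the left and right panels and 55 lie above 0 in the middle one.

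The comparison of Pre-CD8 DCs with Zbtb46+ CDPs follows the genes along the cDC1 branch. It shares the Zbtb46+ arrays with the first comparison, so that a low Zbtb46+ array lowers one difference and raises the other. In Pre-CD8 DCs 55 of the 60 genes had a higher mean, 6 passed as higher and 0 as lower (limma, adjusted p under 0.05), beside 4.76% higher and 1.86% lower among all genes. At an unadjusted p under 0.05 24 were higher and 0 lower, a count without a share of all genes to set beside it. The median difference was 0.20, with a range of -0.08 to 0.54, against -0.03 for all genes. The arrays lay wholly above for 35 of the 60 genes, and for 12.6% of all genes, and after quantile normalization for 23 of the 60 and 11.3%. Without Pre-CD8 replicate 1 or 3 the count of genes past the test was 0, and without Pre-CD8 replicate 2 it was 1. Without Zbtb46+ replicate 2 it was 2, and without Zbtb46- replicate 2 or 3 it was 3. Over all genes 2.30% to 4.18% were higher in these fits.

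Rpl22 had 10.30, 10.35 and 10.30 in Pre-CD8 DCs, against 9.68, 9.90 and 9.95 in Zbtb46+ CDPs, a rise of 0.47 (SE 0.09, adjusted p = 0.0143). Rpl36 had 10.76 on each of the 3 Pre-CD8 arrays, against 10.42, 10.25 and 10.37 in Zbtb46+ CDPs, a rise of 0.41 (SE 0.08, adjusted p = 0.0129). Rpl7l1 had 9.35, 9.35 and 9.41 in Pre-CD8 DCs, against 9.03, 9.0 and 8.95 in Zbtb46+ CDPs, a rise of 0.37 (SE 0.08, adjusted p = 0.023). The populations did not overlap in any of these 3 genes, and the Pre-CD8 arrays lay close together.

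Rps3 rose by 0.39 (SE 0.09, adjusted p = 0.0383), to 12.46, 12.52 and 12.44 in Pre-CD8 DCs, against 11.88, 12.17 and 12.19 in Zbtb46+ CDPs. The large subunit genes Rpl27 and Rpl26, whose proteins sit on the 60S particle, rose by 0.33 and 0.32 (adjusted p = 0.0471 and 0.0464). Quantile normalization left Rpl36 and Rpl7l1 past the test (adjusted p = 0.0264 and 0.0455). These were 2 of the 60 higher and 0 lower, beside 3.95% and 2.96% of all genes, with a median difference of 0.12. The share of members higher, 3.33%, was no larger than the share of all genes. Rpl22 then stood at adjusted p = 0.0716.

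When the arrays low in Xist were left out, 9 genes (15%) were higher and 0 lower, with a median difference of 0.12. Among all genes 12.5% were higher and 7.87% lower. All 6 of the genes above were among the 9. When those arrays were left out after quantile normalization 5 genes were higher and 3 lower, with a median of 0.07, beside 8.54% and 6.84% of all genes. The shares of members, 8.33% higher and 5% lower, were no larger than these. Rplp2, among the 3 lower genes, had with all arrays 9.66, 9.53 and 9.67 in Pre-CD8 DCs, against 9.61, 9.74 and 9.75 in Zbtb46+ CDPs (difference -0.08, adjusted p = 0.681). Quantile normalization without the arrays low in Xist gave it a difference of -0.26 (adjusted p = 0.0322). Rps12 and Rps6 differed by 0.05 and 0.11 (adjusted p = 0.809 and 0.678).

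The comparison of Pre-CD8 DCs with Zbtb46- CDPs spans both steps and shares its arrays with them. All 60 genes had a lower mean in Pre-CD8 DCs, 4 passed as lower and 0 as higher (limma, adjusted p under 0.05), beside 9.23% lower and 6.43% higher among all genes. The share of members, 6.67%, was no larger than the share of all genes. At an unadjusted p under 0.05 11 were lower and 0 higher, again without a share of all genes to set beside them. The median difference was -0.12, with a range of -0.75 to -0.01, against 0.01 for all genes, and in 30 of the 60 genes the arrays did not overlap, with the Pre-CD8 arrays lower, as in 19.2% of all genes. After quantile normalization that was so for 25 of the 60 and 21.9%.

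The 4 genes were Rpl12, Rpl7l1, Rpl34 and Rps2. Rpl7l1 had 9.35, 9.35 and 9.41 in Pre-CD8 DCs, against 9.80, 9.55 and 9.66 in Zbtb46- CDPs, and fell by 0.30 (SE 0.08, adjusted p = 0.0293). Rpl34, a large subunit protein, had 10.57, 10.63 and 10.74 in Pre-CD8 DCs, against 11.05, 10.91 and 10.87 in Zbtb46- CDPs, and fell by 0.30 (SE 0.09, adjusted p = 0.0463). Rps2 had 13.47, 13.55 and 13.46 in Pre-CD8 DCs, against 13.69, 13.70 and 13.73 in Zbtb46- CDPs, and fell by 0.22 (SE 0.06, adjusted p = 0.0461). Rpl12, with 6.90, 7.12 and 6.42 in Pre-CD8 DCs, against 7.64, 7.55 and 7.51 in Zbtb46- CDPs, fell by 0.75 (SE 0.19, adjusted p = 0.0276) and lay near the table's median.

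Each of these 4 calls rested on single arrays. No gene passed without Zbtb46- replicate 3, Pre-CD8 replicate 1 or Pre-CD8 replicate 3. The count was 1 without Zbtb46- replicate 1 or Pre-CD8 replicate 2, 2 without Zbtb46- replicate 2, and 9 without Zbtb46+ replicate 1. Over all genes 12.8% were lower in the last of these fits and 6.33% to 7.95% in the others. Quantile normalization gave 5 lower and 0 higher, with a median of -0.08 and 52 of 60 lower in mean, beside 9.03% lower and 7.53% higher among all genes. Without the arrays low in Xist 8 were lower and 0 higher, beside 10.8% and 9.40% of all genes. Over all 3 populations at once, the F test was passed by 24 of the 60 genes and by 19.1% of all genes. Without Zbtb46- replicate 1, Zbtb46- replicate 3 or Pre-CD8 replicate 1 it was passed by 13, 9 or 15 of the 60. The shares of all genes in these fits were 14.9%, 13.2% and 14.3%.

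**Figure D5:**
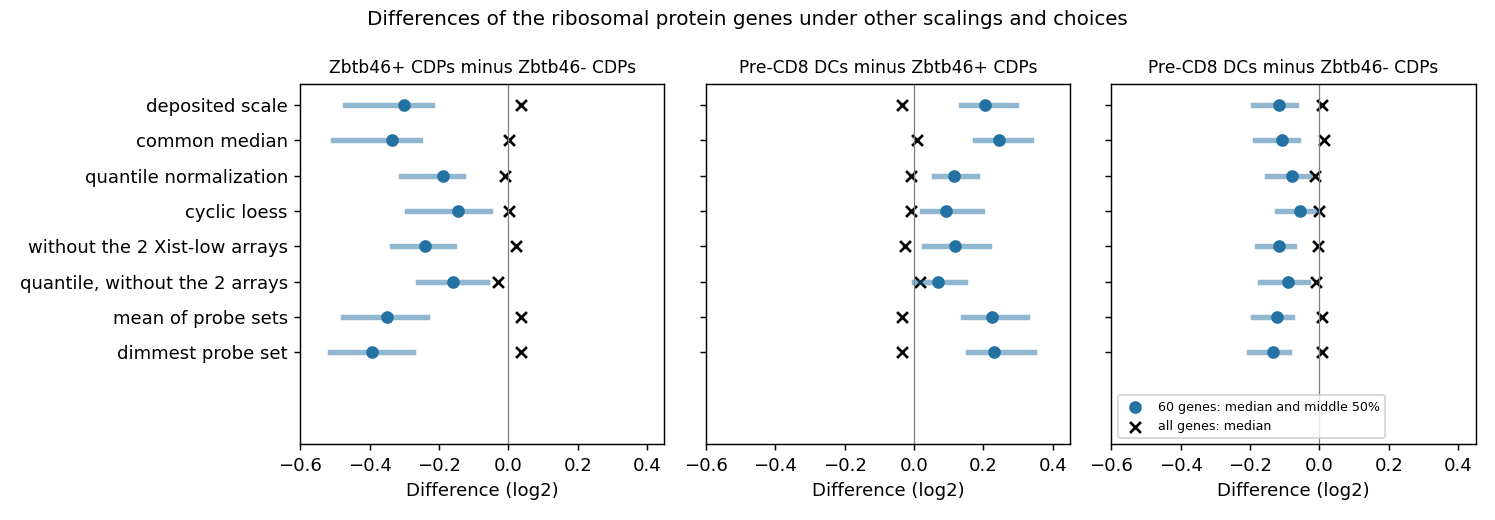
Median (point) and middle 50% (bar) of the log2 differences of the 60 genes in each comparison on the deposited scale and under 7 other scalings, sample sets or probe set choices, with the median of all genes as a cross. In the left panel the points lie between -0.39 and -0.14, each below the cross, and in the middle and right panels the differences are smaller.

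Genes that share the regulation or serve the assembly of ribosomal proteins were read from 3 lists. Other genes with a TOP motif, mostly translation factors, had 20 of 26 members measured. In Zbtb46+ against Zbtb46- CDPs 10 of the 20 were lower and 0 higher, with a median of -0.44, beside 10.6% lower and 3.85% higher among all genes. The initiation factor genes Eif2s3x, Eif3l, Eif3e and Eif4b fell by 0.85, 0.76, 0.69 and 0.68 (adjusted p = 0.0164, 0.00319, 0.000613 and 0.000292), and the call of Eif2s3x was lost after quantile normalization (adjusted p = 0.0552). The elongation factor Eef1a1, among the brightest genes, differed by -0.18 (adjusted p = 0.0852). In Pre-CD8 DCs against Zbtb46+ CDPs, 2 of the 20 were higher, Eif3e by 0.49 and Eif3k by 0.33 (adjusted p = 0.00629 and 0.0485), and 0 lower, beside 4.76% higher and 1.86% lower among all genes. After quantile normalization Eif3k did not pass (adjusted p = 0.189). In Pre-CD8 DCs against Zbtb46- CDPs, 3 were lower and 0 higher, among them Eif4b (-0.45, adjusted p = 0.00136), beside 9.23% lower and 6.43% higher among all genes. Quantile normalization gave 5 lower, 1 higher and 3 lower in these comparisons, beside 8.11%, 3.95% and 9.03% of all genes. Leaving out the arrays low in Xist gave 11 lower, 6 higher and 5 lower, beside 13.8%, 12.5% and 10.8%.

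Chaperones and assembly factors of ribosomal proteins, 18 of 19 measured, are read against the same shares of all genes. In Zbtb46+ against Zbtb46- CDPs 13 were lower and 0 higher, with a median of -0.69. Quantile normalization gave 12 lower, beside 8.11% of all genes, and without the arrays low in Xist 13 were lower, beside 13.8%. Rrs1, which with Rpf2 places Rpl5, Rpl11 and 5S rRNA into the large subunit, had 8.46, 8.56 and 8.35 in Zbtb46+ CDPs, against 9.84, 9.58 and 9.75 in Zbtb46- CDPs, and fell by 1.27 (adjusted p = 0.000158). Grwd1, a chaperone of Rpl3, fell by 1.18 (adjusted p = 0.00499), Lsg1, a GTPase of late large subunit maturation, by 1.10 (adjusted p = 0.000303), and Rpf2 by 0.95 (adjusted p = 0.00259). Replicate 1 was not the lowest Zbtb46+ array for Rrs1.

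In Pre-CD8 DCs against Zbtb46+ CDPs 5 of the 18 were higher and 0 lower, beside 4.76% and 1.86% of all genes. The count of higher genes was 2 after quantile normalization and 12 without the arrays low in Xist, beside 3.95% and 12.5% of all genes. Pdcd2, a chaperone of Rps2, rose by 0.84 (adjusted p = 0.0371), Rrs1 by 0.57 (adjusted p = 0.0152), Mrto4, which holds the place of Rplp0 on the nascent subunit, by 0.56 (adjusted p = 0.0259) and Lsg1 by 0.50 (adjusted p = 0.0253). Quantile normalization ended the calls of Pdcd2 (adjusted p = 0.0823) and Mrto4 (adjusted p = 0.0683). In Pre-CD8 DCs against Zbtb46- CDPs 6 were lower and 0 higher, among them Grwd1 by 0.93 and Rrs1 by 0.70 (adjusted p = 0.0132 and 0.00215), beside 9.23% lower among all genes. Quantile normalization gave 5 lower and 1 higher, beside 9.03% and 7.53% of all genes. Leaving out the arrays low in Xist gave 7 lower and 2 higher, beside 10.8% and 9.40%. The higher genes, named after their values were seen, were Sbds, a factor of late large subunit maturation, under both (adjusted p = 0.0445 and 0.0251), and Pdcd2 without the arrays low in Xist (adjusted p = 0.0152).

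Of the genes that govern growth and TOP translation 17 of 20 were measured. In Zbtb46+ against Zbtb46- CDPs 2 were higher and 2 lower, with a median of -0.17, beside 3.85% and 10.6% of all genes. Without the arrays low in Xist 1 was higher and 6 lower, with a median of -0.28, beside 8.71% and 13.8% of all genes. After quantile normalization 2 were higher and 1 lower, beside 5.61% and 8.11%. Myc had 10.36, 9.72 and 9.65 in Zbtb46+ CDPs, against 11.53, 11.46 and 11.54 in Zbtb46- CDPs, and fell by 1.60 (adjusted p = 0.000388). Mycl, its relative known to replace Myc in mouse DCs, rose by 0.99 (adjusted p = 0.0139). The S6 kinase family gene Rps6ka3 rose by 0.44 and the RNA-binding Larp4 fell by 0.53 (adjusted p = 0.0219 and 0.00532). Rps6ka3 did not pass without the arrays low in Xist (adjusted p = 0.0601), nor Larp4 after quantile normalization (adjusted p = 0.0662). Mtor and Larp1 differed by -0.27 and -0.17 and did not pass (adjusted p = 0.202 and 0.329), and without the arrays low in Xist Mtor passed as lower (-0.34, adjusted p = 0.0162).

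In Pre-CD8 DCs 2 of the 17 were higher and 0 lower than in Zbtb46+ CDPs, beside 4.76% and 1.86% of all genes. Without the arrays low in Xist 7 were higher, beside 12.5%, and after quantile normalization 1 was higher, beside 3.95%. Against Zbtb46- CDPs 2 were higher and 1 lower, beside 6.43% and 9.23% of all genes. Myc stood at 10.76, 10.62 and 10.68 in Pre-CD8 DCs, above the Zbtb46+ arrays by 0.78 (adjusted p = 0.0243) and below the Zbtb46- arrays by a log2 difference of -0.82 (adjusted p = 0.00841). Larp4 rose by 0.41 against Zbtb46+ CDPs (adjusted p = 0.0324; 0.208 after quantile normalization). Mycl was higher than in Zbtb46- CDPs by 1.68 (adjusted p = 0.000559), and its difference of 0.69 from Zbtb46+ CDPs did not pass (adjusted p = 0.0968), but passed without the arrays low in Xist (0.93, adjusted p = 0.00078).

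Genes outside the list followed a like course over the 9 arrays. Of all genes outside the list, Tomm20, a receptor of mitochondrial protein import, followed the median member most closely (Pearson r = 0.991), then the chaperonin subunit gene Cct8 (r = 0.989) and the zinc finger gene Zfp825 (r = 0.989). These correlations over 9 arrays share the low Zbtb46+ replicate 1 and are given as a description. Tomm20 had 8.87, 9.62 and 9.71 in Zbtb46+ CDPs, against 10.02, 9.91 and 10.16 in Zbtb46- CDPs (difference -0.63, adjusted p = 0.0616). Among the members themselves the correlation with the median member ran from 0.993 for the closest down to 0.0691 for the dim Rpl39l, with Rpl6, named after its value was seen, at 0.323, Rpsa at 0.411 and Rplp2 at 0.427.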

How the data were processed

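RNA of 9 sorted samples was measured on Affymetrix arrays. Per the submitters' processing notes, the authors summarised the deposited probe set intensity values by RMA in Affymetrix Expression Console, and versions and settings are not given in the sources used here. The deposited intensities were on a linear scale, with no depth of their own, and their log2 was taken with no filter on dim genes. The number of arrays limits the precision. No column belonged to other samples. Group means were fitted to all 9 arrays and 19938 genes with limma 3.58.1 (lmFit, eBayes) in R 4.3.3, after the steps were tested on simulated data. Figures and start-site counts used Python 3.11.15, pandas 2.3.3, numpy 2.4.6 and matplotlib 3.10.9.

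The members, lists, tests and alternatives were chosen with earlier results of these data known. Named were, in each comparison, up to 6 members with the largest rise or fall among those past the test whose arrays did not overlap, the 3 brightest and 3 dimmest, the stalk genes, Rpsa, the paralogs with their partners, Rps6, Rps19, Rpl5, Rpl11 and Rpl23, and genes of 3 lists. Residuals of same-numbered arrays correlated by 0.51, 0.42 and 0.36 between the CDP populations. A pairing would rest on these correlations and not on a label. Zbtb46+ replicate 2 and Zbtb46- replicate 3 correlated by 0.38, so that these values do not tell replicates 2 and 3 apart. The other differently numbered CDP pairs had -0.51 to 0.15. Same-numbered arrays correlated by 0.11, 0.07 and 0.17 between Pre-CD8 DCs and Zbtb46+ CDPs. Between Pre-CD8 DCs and Zbtb46- CDPs the values were -0.01, -0.03 and 0.03. Alternatives were other scalings (common median, quantile, cyclic loess), the 30% dimmest genes left out, other probe sets, a replicate block, an intensity trend, array weights, fits of 2 populations, a threshold of 0.01 and each array left out. The arrays low in Xist were also left out together, and each on its own after quantile normalization. The second of these was added after seeing the data, as were the other bright genes and the ranks.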

Additional observations from a re-analysis of the deposited data

How the results depend on the processing

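Every median difference of the 60 genes kept its sign under each alternative run. It lay between -0.39 and -0.14 for Zbtb46+ against Zbtb46- CDPs, 0.07 and 0.25 for Pre-CD8 DCs against Zbtb46+ CDPs, and -0.15 and -0.06 for Pre-CD8 DCs against Zbtb46- CDPs. The counts depended on the choices, and the causes were not tested. Genes lower in Zbtb46+ than in Zbtb46- CDPs, 29 in the report, numbered 13 after quantile normalization, 11 after cyclic loess, 45 with array weights, 16 with these populations alone, 10 at 0.01 and 14 to 32 with 1 array left out. Quantile normalization without the arrays low in Xist gave 14, and without Zbtb46- or Zbtb46+ array 1 alone 8 or 18. The share of all genes moved too, to 18.3% with array weights, 6.96% with these populations alone and 5.19% at 0.01. For genes higher in Pre-CD8 DCs than in Zbtb46+ CDPs, 6 in the report, the counts were 2 (quantile), 3 (2 populations), 0 (threshold of 0.01), 0 to 4 (1 array left out), and 1 or 3 (quantile without Zbtb46- or Zbtb46+ array 1). Genes lower there, 0 in the report, were 3 with quantile normalization without both arrays and 1 without Zbtb46+ array 1. Among all genes 6.84% and 5.31% were lower in these fits. The shares of all genes higher were 3.95% (quantile), 3.01% (2 populations) and 1.88% (0.01). With quantile normalization without Zbtb46- or Zbtb46+ array 1 they were 3.58% or 7.23%. Genes lower in Pre-CD8 DCs than in Zbtb46- CDPs, 4 in the report, were 2 with a common median, cyclic loess or an intensity trend, 32 with array weights, 9 with 2 populations, 0 at 0.01, 0 to 9 with 1 array left out, 8 without the arrays low in Xist, 9 when quantile normalization was added, and 0 or 9 with quantile normalization without Zbtb46- or Zbtb46+ array 1. The F test, passed by 24, was passed by 13 (quantile), 10 (cyclic loess), 49 (array weights) and 7 (0.01). The shares of all genes were 19.1%, 19.2%, 43.6% and 10.5%. With 1 array left out 9 to 29 passed, beside 13.2% to 31.5% of all genes. Quantile normalization gave 14 without both arrays and 8 without Zbtb46- array 1, beside 27.2% and 14.7%. With cyclic loess and in these last fits the 60 genes passed no more often than all genes. With array weights 18.7% of all genes were lower in Pre-CD8 DCs than in Zbtb46- CDPs. The shares lower there were 8.43% (common median), 8.88% (cyclic loess), 8.69% (intensity trend), 11.6% (2 populations) and 5.20% (0.01). With 1 array left out they were 6.33% to 12.8%. They were 10.8% without the arrays low in Xist, and 10.9% when quantile normalization was added. Quantile normalization without Zbtb46- or Zbtb46+ array 1 gave 6.75% or 12.7%.

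With the replicate block 28 genes were lower in Zbtb46+ than in Zbtb46- CDPs, beside 12.3% of all genes. Pre-CD8 DCs share only numbers with the CDPs, and the block gave 3 genes higher than in Zbtb46+ CDPs and 2 lower than in Zbtb46- CDPs. The shares of members, 5% and 3.33%, were no larger than those of all genes, 5.00% and 10.3%. The 28 ribosomal protein genes that the naming rule picked, each in 3 comparisons, kept their side of the threshold in 1786 of the recalculations and crossed it in 221, and 72 differences, none of them called, changed sign. Signals near the table's median, as of Rpl12, are limited by background.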
